A study of Mus musculus with 5 samples.

Results

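Cdx2 is a caudal-type homeodomain transcription factor of the posterior epiblast, its mesodermal descendants and the trophectoderm. With Cdx1 and Cdx4, it activates the central and posterior Hox genes, which are arranged in 4 genomic clusters and give cells their position along the body axis. In the gastrulating embryo, FGF and Wnt signals maintain Cdx expression in the caudal region. The cells described here were differentiated in the presence of an FGF receptor inhibitor, and their barcodes still held Cdx2 UMIs. They are the barcodes of the FGFRi library with at least 2500 detected genes, at most 10% mitochondrial unique molecular identifiers (UMIs) and at least 1 Cdx2 UMI. The cells were thus selected on their measured Cdx2, and everything said about Cdx2 below is a description of that choice. By this rule, 132 of the 1701 kept FGFRi-treated cells were members, out of 10653 kept cells in the whole series. The other 1569 kept FGFRi-treated cells had no Cdx2 UMI.

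All libraries came from mouse epiblast stem cells (EpiSCs, a pluripotent cell line derived from the post-implantation epiblast) that were differentiated for 3 days in N2B27 with 1 µM Chi (CHIR99201 in the labels, a Wnt pathway agonist) and 8 ng/ml BMP. The FGFRi culture received 30 nM AZD4547, an inhibitor of FGF receptors, and the culture used for comparison received no FGF2. Each condition was sequenced as 1 library with 3′ end counting. No dose of FGF2 is stated for the FGFRi culture, so that the effect of the inhibitor and that of the medium cannot be told apart. With 1 library per condition, there was no replicate error and no test, and the intervals given here (95%, exact) cover counting error only. The deposited barcodes of the FGFRi library held 50167816 UMIs, and those of the no FGF2 library 58393453. Of 2407 barcodes without FGF2, 1696 were kept. Among the kept FGFRi-treated cells, 3 had a barcode that was also deposited in another library, and 0 of them were members.

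Most members had very little Cdx2. There was 1 Cdx2 UMI in 75 cells, 2 in 35 cells, 3 in 15 cells, 4 in 4 cells, 5 in 2 cells and 6 in 1 cell. In the no FGF2 library, cells with Cdx2 had a median of 4 Cdx2 UMIs, and the highest cell had 24. The share of cells with a Cdx2 UMI was 7.76% (6.53 to 9.14%) in the FGFRi library and 68.9% (66.7 to 71.1%) without FGF2. After thinning each cell to 10000 UMIs, which left out 39 FGFRi-treated cells and 17 cells without FGF2, the shares were 4.15% and 51.4%. At 5000 UMIs, they were 2.06% and 38.0%. Summed over the cells of a library and scaled to their total UMIs (CPM), the level of Cdx2 was 4.64 CPM (4.05 to 5.29) with the FGFRi and 109 CPM (106 to 112) without FGF2. Of the related genes, Cdx1 and Cdx4 had 0 UMIs among the 3848027 UMIs of the members, which allows a level of up to 0.780 CPM by a floor of 3 counts. Both genes were also near 0 without FGF2, at 2 UMIs each.

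A UMI in droplet data can also come from free RNA, and several measurements bear on this. Members were about as deep as the other FGFRi-treated cells, with a median of 25480 UMIs against 24338, and had a similar median mitochondrial share of 4.29% against 4.35%. When all kept FGFRi-treated cells were divided into quartiles of depth, the share with a Cdx2 UMI was 7.06%, 7.06%, 9.41% and 7.51% from the shallowest to the deepest. The barcodes that the filters removed, which had a median of 1676.5 UMIs, held Cdx2 at 4.27 CPM (2.05 to 7.85, 10 UMIs), and this interval overlapped that of the kept cells. Barcodes without a called cell were not analysed here. The share of members was far from even between groups of cells. Cells of both libraries were grouped by Leiden clustering of their transcriptomes, with all Cdx and Hox genes left out so that these genes could not form the clusters. In cluster 1, 49 of 101 FGFRi-treated cells had a Cdx2 UMI (48.5%, 38.4 to 58.7%), whereas in cluster 2 it was 11 of 581 (1.89%, 0.949 to 3.36%). Cluster 1 was the shallower of both, at a median of 22586 UMIs per FGFRi-treated cell against 28728. After thinning to 10000 UMIs, the shares were 28.3% and 0.524%. Between them lay cluster 0 with 40 of 680 cells (5.88%, 4.24 to 7.92%) and cluster 4 with 22 of 279 cells (7.89%, 5.01 to 11.7%). The small clusters 3 and 5 had 4 of 28 and 6 of 32 cells. Cluster 2 had the lowest share, and 3 of its 11 members had 2 or more Cdx2 UMIs. In each of the other 5 clusters, the interval of the share lay above the one of cluster 2. After thinning, this held for clusters 0, 1 and 4, and the wide intervals of clusters 3 and 5 overlapped it. The part of free RNA in the Cdx2 UMIs was not tested.

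**Figure D1:**
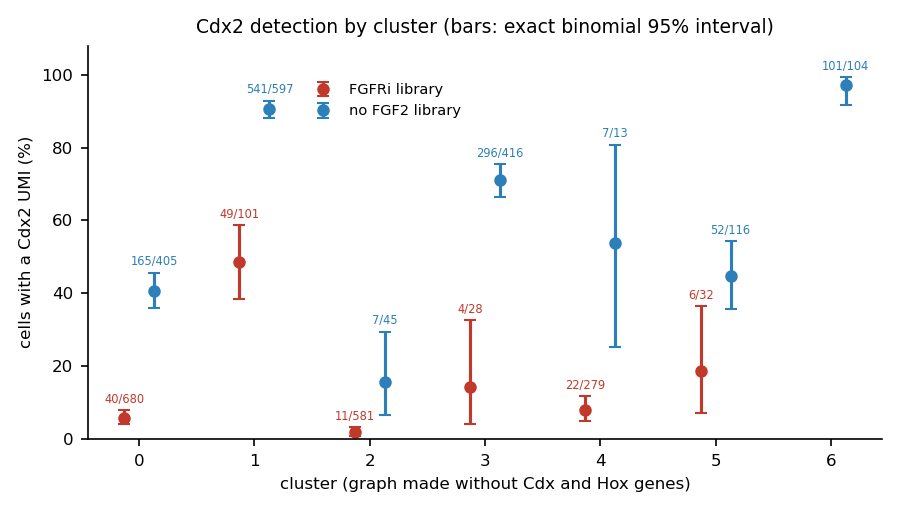
Share of cells with at least 1 Cdx2 UMI (y axis, percent of cells) in each cluster (x axis) of the graph made without Cdx and Hox genes, for the FGFRi library (red) and the no FGF2 library (blue), with exact binomial 95% intervals and the number of cells with Cdx2 over all cells. In the FGFRi library, the share is 48.5% in cluster 1 and 1.89% in cluster 2, and cluster 6 holds no FGFRi-treated cell.

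Members had higher levels of Hox genes than FGFRi-treated cells without a Cdx2 UMI, and lower levels of 7 of 11 mesenchyme genes, in the comparison over all cells. Without replicates, genes were called by the size of the difference alone. This rule of size asked for a ratio of 1.5 or more and for a level of 20 CPM or more in at least 1 of both groups, and Cdx2 was left out. Of the 6227 genes at this level, 372 were higher in members (5.97%) and 426 were lower (6.84%). For all 372 and all 426, the interval of the ratio excluded 1. At these minima of level and ratio, this follows from the size of the counts and adds nothing to the calls. The median log2 ratio over the 6227 genes was -0.0028. At 2-fold or more, 74 genes were higher (1.19%) and 100 lower (1.61%). Both counts shrank when the compared cells were given the same mixture of clusters as the members, to 32 genes higher and 46 lower (32 of 6092 genes is 0.525%, and 46 is 0.755%), as described below.

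The 12 genes with the largest ratios included 7 coding Hox genes and 2 antisense RNAs at the Hox clusters. Hoxaas3, an antisense RNA within the HoxA cluster (GRCm38, chr6:52175217-52215076), was at 63.1 CPM (55.5 to 71.6) in members and at 5.75 CPM in the other FGFRi-treated cells, an 11.0-fold difference (9.17 to 13.1). It was detected in 54 of 132 members. Hoxb5os, an antisense RNA of the HoxB cluster (chr11:96291024-96306910), was at 34.8 CPM in members and 3.73 CPM in the other cells (9.34-fold, 7.38 to 11.8). Whether the counting used the strand is not given in the sources used here, so that reads of antisense RNAs and of the coding genes they overlap, such as Hoxa7 or Hoxb5 and Hoxb6, may not be fully separated. Hoxb9 (chr11:96271457-96276595), a gene of thoracic identity, was at 46.3 CPM (39.7 to 53.6) in members, 5.82 CPM in FGFRi-treated cells without a Cdx2 UMI, 209 CPM in no FGF2 cells with a Cdx2 UMI and 11.4 CPM in no FGF2 cells without. Over all cells, the members' level of Hoxb9 was 7.95-fold (6.53 to 9.66) above that of the cells from the same culture. After weighting to the members' clusters, the direction turned for Hoxb9 (46.3 against 48.7 CPM) and Hoxb5os (34.8 against 42.1 CPM), and without the cells of cluster 1 the ratio of Hoxb9 was 2.72. Its level in members lay well below that of cells with Cdx2 in the other culture. Also among the 12 were Hoxd4 (6.89-fold), Hoxa7 (6.41-fold), Hoxa9 (6.22-fold), Hoxc9 (5.19-fold), Hoxc8 (4.21-fold) and Hoxa10 (4.01-fold). The remaining 3 were the noncoding RNA Gm45889 (41.6 against 5.18 CPM, 8.02-fold), Lpl, which encodes the extracellular lipoprotein lipase (38.2 against 9.44 CPM, 4.05-fold, with 14.3% of the members' UMIs in 1 cell), and Fzd10, a Wnt receptor (26.2 against 6.69 CPM, 3.93-fold). After the weighting, Gm45889 (1.84), Hoxc9 (1.70), Fzd10 (1.70), Hoxd4 (1.54) and Hoxa9 (1.52) still passed the rule of size, and Hoxaas3 (1.48), Hoxa7 (1.43), Hoxa10 (1.35), Lpl (1.26) and Hoxc8 (1.23) did not.

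The higher level in members was seen in all 4 Hox clusters. Of 39 coding Hox genes, 29 reached 5 CPM in at least 1 of the 4 groups of cells (members, FGFRi-treated cells without a Cdx2 UMI, and no FGF2 cells with and without a Cdx2 UMI). All 29 had a ratio above 1 between members and the other FGFRi-treated cells, with a median log2 ratio of 2.07. The median was -0.012 over all 10058 genes with at least 5 CPM in members or in the other FGFRi-treated cells. These filters differ, because some of the 29, such as Hoxb6 (2.60 against 0.136 CPM), reached 5 CPM in no FGF2 cells only. The filter of the 29 keeps genes for a high level in any group. Their median thus says nothing about the other 10 genes, which were too low in all groups. Of these, Hoxc13 was at 1.82 CPM in members and 3.55 CPM in the other cells. At the 20 CPM of the rule of size, 8 coding Hox genes were higher, beside 5.97% of all genes, but all 8 reached this level in members only, so that none of them could have been called lower and the count is a description. The median log2 ratio was 3.03 for 8 genes of the HoxB cluster, 2.07 for 6 of HoxC, 1.99 for 6 of HoxD and 1.84 for 9 of HoxA. This order did not hold after weighting to the members' clusters, where 6 of the 8 HoxB genes had a ratio below 1 and the HoxB median log2 ratio was -0.059, against 0.33 for HoxC, 0.20 for HoxD and 0.33 for HoxA. The largest ratios were those of Hoxb6 (19.0-fold, 6.27 to 63.8, on 10 UMIs in members) and Hoxb8 (10.5-fold, 7.13 to 15.4, at 14.3 against 1.36 CPM). The weighted ratio of Hoxb8 was 0.969, at 14.3 against 14.8 CPM, so that its direction turned. Some annotated Hox genes overlap, such as Hoxd3 and Hoxd4, or Hoxc5, whose annotation spans Hoxc6, Hoxc8 and Hoxc9, and their single values are therefore uncertain.

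**Figure D2:**
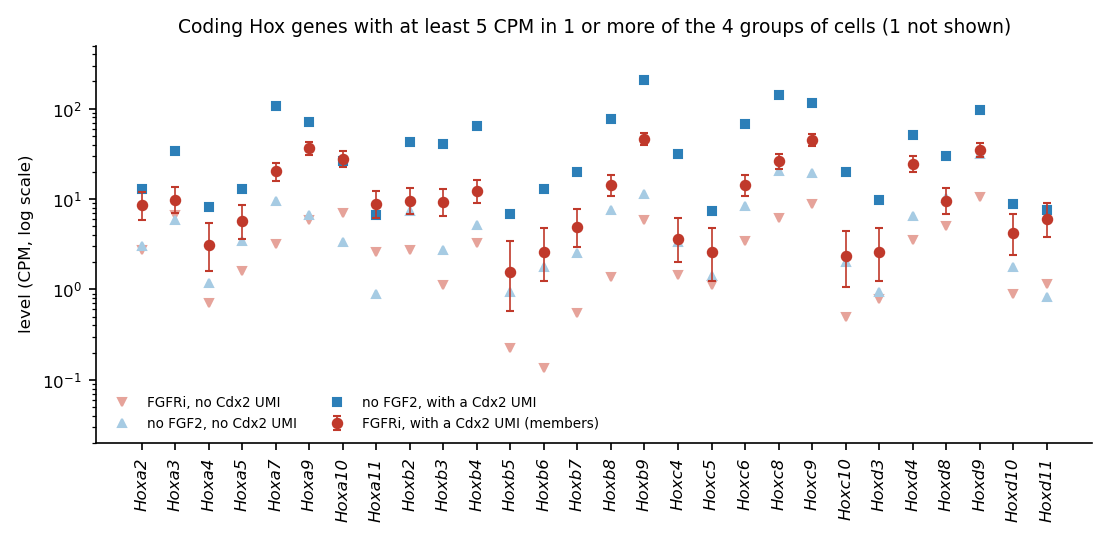
Level (y axis, CPM on a log scale) of the coding Hox genes at 5 CPM or more (x axis, ordered by cluster and paralogue number, 1 gene not shown) in 4 groups of cells, where the bars of the members show the exact Poisson 95% interval. For every gene plotted, the members (dark red) lie above the FGFRi-treated cells without a Cdx2 UMI (light red), and for Hoxb9 the 4 levels are 46.3, 5.82, 209 and 11.4 CPM.

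Because Cdx proteins bind an AT-rich motif, promoters of the coding Hox genes were searched for the letters GCNATAAA on both strands, in windows from 250 bases before to 50 bases after the start (RefSeq, GRCm38.p6). Promoters were at hand for 22 of the 39 genes. The letters were present in 2 of the 24 promoters of these genes (8.33%), and in 874 of all 32851 promoters (2.66%). In the promoter of Hoxb8, they occurred 2 times (capitals) in the 250 bases before the start at chr11:96281655-96281904 on the plus strand:

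Hoxb8: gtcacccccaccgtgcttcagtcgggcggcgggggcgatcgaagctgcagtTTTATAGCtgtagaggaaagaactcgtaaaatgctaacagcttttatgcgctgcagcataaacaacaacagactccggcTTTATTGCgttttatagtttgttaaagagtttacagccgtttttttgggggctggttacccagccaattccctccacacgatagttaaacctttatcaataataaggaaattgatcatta

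The other match was in Hoxd4, after the start, at chr2:74721989-74722016 on the plus strand:

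Hoxd4: taaactttgtTTTATGGCttgagagttg

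Such matches describe letters in these windows and not binding sites. Hoxa7, Hoxa9 and Hoxa10, also among the genes named above, had no match in their windows.

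Among the 12 genes with the smallest ratios were 3 collagen genes. Col1a1, a chain of type I collagen (chr11:94936224-94953042), was at 1.30 CPM (0.422 to 3.03, 5 UMIs) in members and 26.2 CPM in FGFRi-treated cells without a Cdx2 UMI, a 20.2-fold lower level (8.62 to 62.3). It was also low in the no FGF2 library, at 2.18 CPM. Its partner chain Col1a2 was 6.25-fold lower (8.58 against 53.6 CPM), and Col8a1 5.80-fold lower (4.16 against 24.1 CPM). Ptgs2, which encodes cyclooxygenase 2, was 7.56-fold lower (4.93 to 12.2), at 5.46 against 41.3 CPM. The matrix phosphoprotein gene Spp1 was at 20.8 against 97.9 CPM (4.71-fold lower), and 58.8% of the members' UMIs of this gene were in 1 cell. For Lce1h, this share was 62.5%, and for Foxq1 36.1%. After weighting to the members' clusters, Spp1 was 1.44-fold and Lce1h 1.40-fold lower, under the rule of size. The weighting also reduced the difference to 6.68-fold for Col1a1, 2.91-fold for Ptgs2, 2.42-fold for Col8a1 and 1.76-fold for Ahnak2. The weighted cells without a Cdx2 UMI had these genes at 8.68, 15.9, 10.1 and 10.1 CPM in this order. With both groups below 20 CPM, these genes no longer passed the rule of size. The rule was still passed by Sostdc1 (3.91-fold lower), Col1a2 (2.80-fold), Sema5a (2.65-fold), Foxq1 (2.30-fold), Fhl2 (1.996-fold) and Gsn (1.77-fold). The forkhead factor gene Foxq1 (5.30-fold lower), the LIM domain gene Fhl2 (4.39-fold), the cornified envelope gene Lce1h (4.63-fold), the BMP and Wnt antagonist gene Sostdc1 (4.35-fold), Ahnak2 (4.23-fold), the actin-severing Gsn (3.84-fold) and the semaphorin Sema5a (3.72-fold) made up the rest.

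**Figure D3:**
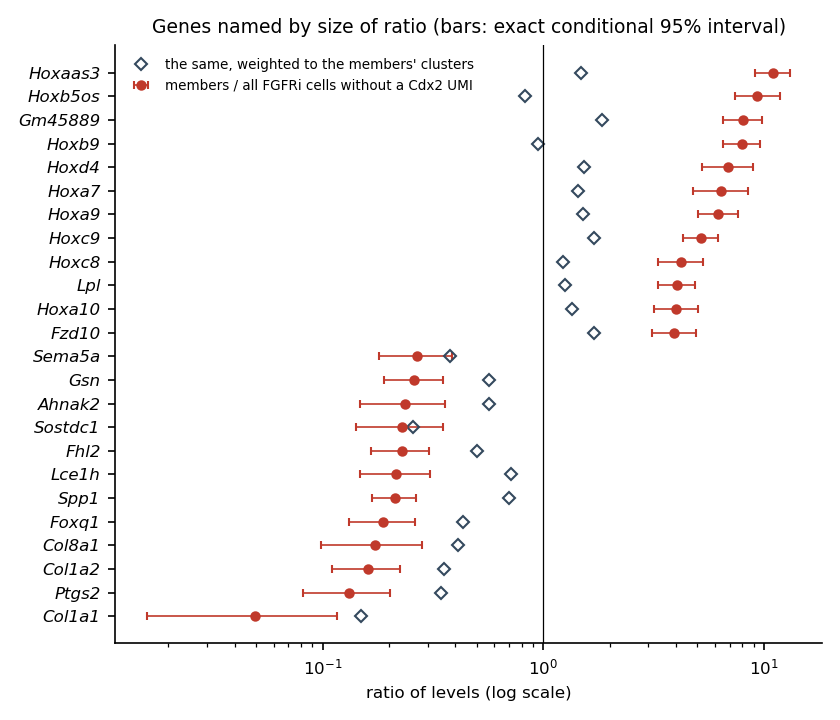
Ratio of levels (x axis, log scale) of members over FGFRi-treated cells without a Cdx2 UMI for the 24 genes with the largest and smallest ratios (y axis). Filled circles compare all cells, with exact conditional 95% intervals, and open diamonds show the same ratio after the compared cells were weighted to the members' mixture of clusters, where Hoxaas3 lies at 1.48 and Hoxb9 just below 1.

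Members were not a uniform group of cells. By the number of members, cluster 1 held 37.1%, cluster 0 30.3%, cluster 4 16.7%, cluster 2 8.33%, cluster 5 4.55% and cluster 3 3.03%. The leading genes of cluster 1, which was mostly formed by cells without FGF2 (597 cells against 101), included T/Bra, Nkx1-2, Fgf8 and Cyp26a1, all markers of caudal epiblast and neuromesodermal precursors. The FGFRi-treated cells had little of some of these. In members of cluster 1, T/Bra was at 12.8 CPM, Nkx1-2 at 6.77 CPM and Cyp26a1, which degrades retinoic acid, at 0.752 CPM, compared with 54.1, 23.2 and 24.0 CPM in no FGF2 cells of the same cluster. In contrast, Sox2 was at 48.1 against 44.1 CPM, Msx1 at 194 against 198 CPM and Fgf8 at 53.4 against 49.3 CPM, though 37.0% of all Fgf8 UMIs of the members were in 1 cell. No cell type name is given to cluster 1 here. Members also differed in their cadherins. E-cadherin (Cdh1) was detected without N-cadherin (Cdh2) in 25 of 40 members of cluster 0 and 6 of 6 of cluster 5, and Cdh2 without Cdh1 in 39 of 49 members of cluster 1 and 16 of 22 of cluster 4. Over all members, 39 cells had UMIs of Cdh1 only, 63 of Cdh2 only, 21 of both and 9 of neither. Krt8, a keratin of simple epithelia, was at 1583 CPM in members of cluster 0 and 70.7 CPM in members of cluster 1. Members of cluster 4 shared Prrx1 (241 CPM) and Twist1 (244 CPM), transcription factors of mesenchyme, with the other FGFRi-treated cells of this cluster (360 and 369 CPM).

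Within clusters, the difference in Hox genes was smaller than over all cells. Summed over the 39 coding Hox genes, the level was 416 CPM (396 to 437) in members and 103 CPM (99.9 to 106) in the other FGFRi-treated cells. In cluster 1, however, it was 850 CPM (801 to 901) in members and 825 CPM (773 to 880) in cells without a Cdx2 UMI, so that the intervals overlapped. In 3 of the other clusters, the level was higher in members, with 122 (104 to 142) against 66.6 CPM (62.8 to 70.5) in cluster 0, 450 (397 to 509) against 283 CPM (269 to 297) in cluster 4 and 75.6 (50.6 to 109) against 39.6 CPM (36.8 to 42.6) in cluster 2. In clusters 3 (277, 158 to 450, against 148 CPM, 114 to 190) and 5 (37.4, 13.7 to 81.4, against 11.4 CPM, 4.94 to 22.5), the intervals overlapped. When the cells without a Cdx2 UMI were weighted to the members' mixture of clusters, the median log2 ratio of the 29 Hox genes was 0.25 in place of 2.07, 19 of the 29 were higher in members, and 3 passed the rule of size. The other 10 had ratios below 1, Hoxb8 among them. Hoxb9 and Hoxb5os then had log2 ratios of -0.07 and -0.28, that is, the direction turned. Without any cell of cluster 1, the median was 1.19. Since clusters were made from the transcriptomes of the same cells, this weighting removes by construction much of what separates them. With the clusters of a graph that left out Cdx2 alone, of which the richest had 64 members among 239 FGFRi-treated cells (26.8%), the weighted median was 0.75.

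**Figure D4:**
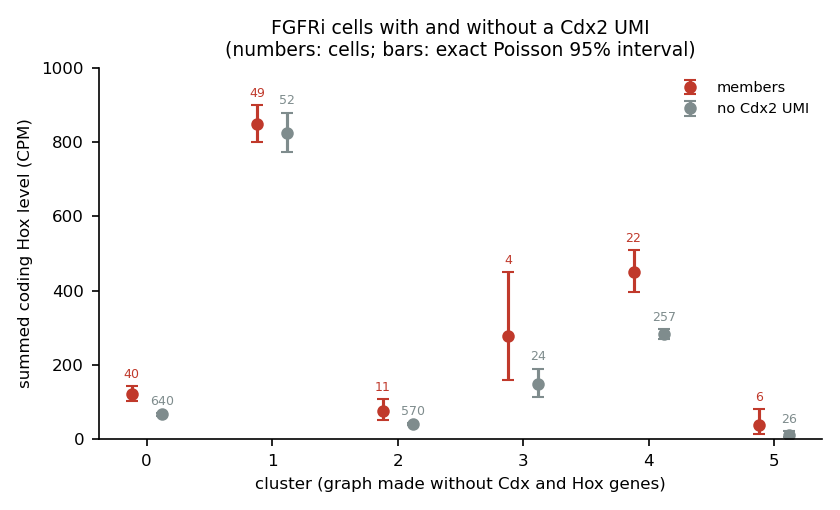
Summed level of the 39 coding Hox genes (y axis, CPM) in FGFRi-treated cells with a Cdx2 UMI (members, red) and without (grey), by cluster (x axis), with exact Poisson 95% intervals and the number of cells. The intervals overlap in cluster 1, at 850 and 825 CPM, and do not overlap in clusters 0, 2 and 4.

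Over all cells, the Hox level also increased with the number of Cdx2 UMIs that the choice of members rests on. Just outside the threshold, the cells with 0 Cdx2 UMIs had a summed Hox level of 103 CPM, just inside it, those with 1 UMI had 327 CPM (303 to 353), and those with 2 or more had 521 CPM (488 to 556). A cell had a median of 1, 5 and 13 Hox UMIs in these classes, at median depths of 24338, 24916 and 26150 UMIs. Within clusters, the classes with 1 and with 2 or more UMIs were closer, at 818 (737 to 904) and 867 CPM (806 to 931) in cluster 1 and 114 (91.6 to 140) and 133 CPM (104 to 167) in cluster 0, and their intervals overlapped. In cluster 2 the order was the opposite, at 96.2 CPM (60.3 to 146) with 1 UMI in 8 cells and 45.2 CPM (18.2 to 93.0) with 2 or more in 3 cells, with overlapping intervals. No Hox UMI was present in 34.8%, 14.7% and 7.02% of the cells. Members ranged from 0 to 58 Hox UMIs per cell, and 15 of the 132 had none, whereas 111 of the 1569 cells without a Cdx2 UMI had 10 or more. In the no FGF2 library, the medians were 3 Hox UMIs in cells without and 40 in cells with a Cdx2 UMI.

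**Figure D5:**
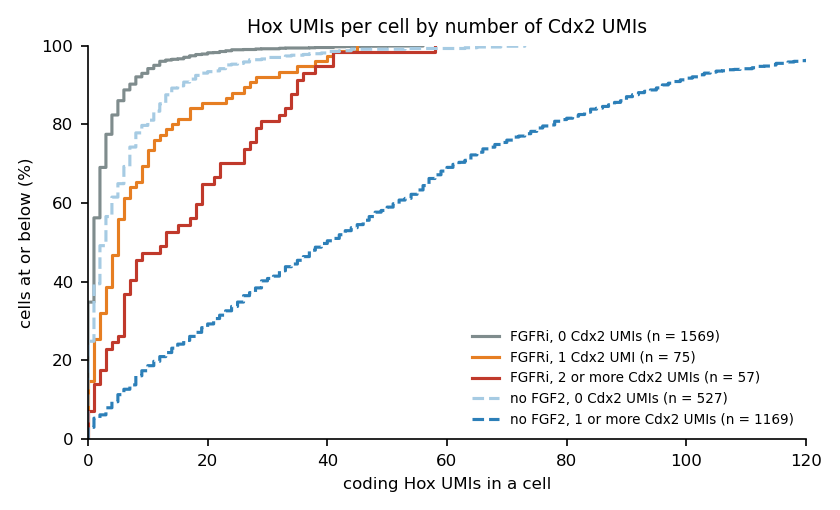
Cumulative share of cells (y axis, percent) by the number of coding Hox UMIs in a cell (x axis, without thinning, shown up to 120), for FGFRi-treated cells with 0, 1 and 2 or more Cdx2 UMIs and for no FGF2 cells without and with a Cdx2 UMI. Among FGFRi-treated cells, the medians are 1, 5 and 13 UMIs, below the 40 of no FGF2 cells with a Cdx2 UMI.

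Over all cells, most proliferation genes were higher in members than in the other FGFRi-treated cells, and 4 cell cycle inhibitors were lower. Of 11 proliferation genes, all at 20 CPM in both groups, 9 were higher, beside 5.97% of all genes, and 0 lower, beside 6.84% (median log2 ratio 0.80). Top2a, needed to separate replicated chromosomes, was at 397 against 218 CPM (1.82-fold, 1.73 to 1.93), Mki67 at 155 against 87.8 CPM (1.76-fold) and the replication helicase subunit Mcm5 at 80.8 against 41.4 CPM (1.95-fold). None of the 11 reached 2-fold. The CDK inhibitors Cdkn1a (120 against 349 CPM, 2.90-fold lower), Cdkn2a (131 against 374 CPM, 2.86-fold), Cdkn2b (88.4 against 185 CPM, 2.09-fold) and Cdkn1c (10.9 against 33.8 CPM) were all lower, beside 6.84% of all genes, though Cdkn1c reached 20 CPM only in the cells without a Cdx2 UMI and could not have been called higher. Of the same list, cyclin D1 (Ccnd1), which promotes entry into S phase, was higher (59.5 against 26.8 CPM, 2.22-fold). These values also differed between clusters. Mki67 was at 16.0 CPM in the 570 cells of cluster 2 without a Cdx2 UMI and at 167 CPM in those of cluster 1, where members had 161 CPM. After weighting to the members' clusters, 0 of the 11 proliferation genes passed the rule of size, and of the inhibitors and cyclins, Ccnd1 remained higher and Cdkn1c lower. Cdkn1a (1.20-fold lower) and Cdkn2a (1.22-fold lower) no longer passed, and Cdkn2b turned direction (88.4 against 85.4 CPM).

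Of 11 mesenchyme genes, 7 were lower in members, beside 6.84% of all genes, and 0 higher, with a median log2 ratio of -1.04. Of the 8 at 20 CPM in both groups, 4 were lower, and the other 3 (Col1a1, Col3a1 and Postn) reached this level only in the cells without a Cdx2 UMI. Smooth muscle actin Acta2 was at 444 against 1057 CPM (2.38-fold lower), Vim at 611 against 1255 CPM (2.05-fold) and Postn at 7.54 against 25.7 CPM (3.41-fold). Prrx1 (61.1 against 79.3 CPM), Twist1 (84.5 against 85.0 CPM), Ahnak and Cdh2 of the same list did not pass the rule. After weighting to the members' clusters, Col3a1 was the only one of the 7 still lower by the rule, and Prrx1 became lower. Col1a1 was then 6.68-fold lower (1.30 against 8.68 CPM), below the minimum of 20 CPM, and Tagln turned direction (1051 against 848 CPM). Of 13 genes of surface ectoderm and epithelium, 1 was lower, Krt19 at 12.7 against 45.9 CPM, beside 6.84% of all genes. In this list 0 were higher (median -0.25), with Cdh1 at 82.1 against 86.1 CPM. Krt19 reached 20 CPM only in the cells without a Cdx2 UMI and could not have been called higher. None of the 7 genes at this level in both groups passed. Among BMP ligands and targets, Msx1 (120 against 43.3 CPM, 2.77-fold, 2.50 to 3.07) and Id1 (94.9 against 61.3 CPM, 1.55-fold) were higher and Bmp2 was lower (46.8 against 96.5 CPM), with a median of 0.06 over 11 genes. Of the Wnt list, only Wnt3 passed the rule (30.1 against 51.8 CPM), and the Wnt targets Axin2 (48.6 against 43.8 CPM) and Lef1 (74.8 against 54.3 CPM) did not. After weighting to the members' clusters, none of Msx1 (1.30), Id1 (1.06) and Wnt3 (0.906) passed the rule, and Bmp2 turned direction (46.8 against 40.0 CPM, 1.17).

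Of 9 FGF target genes, only 2 reached 20 CPM in members or in the other FGFRi-treated cells, and neither passed the rule of size. The other 7 could not have passed, and the median log2 ratio of those at 5 CPM was 0.18. The ETS factor genes Etv4 and Etv5 were at 1.04 and 2.08 CPM in members and 1.41 and 2.48 CPM in the others, and Dusp6, a feedback phosphatase of ERK, at 11.4 against 8.00 CPM (1.43-fold, 1.02 to 1.96). Of the 11 FGF ligand and receptor genes, 2 reached 20 CPM and 0 passed, and Fgfr1 was at 64.4 against 54.8 CPM. Fgf8, at 19.0 against 0.978 CPM, lay just under the minimum of 20 CPM. Its weighted ratio was 3.38 (19.0 against 5.62 CPM), without the cells of cluster 1 it was 1.36 (0.794 against 0.583 CPM), and 37.0% of the members' Fgf8 UMIs were in 1 cell.

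Few genes of the lists for caudal, mesodermal and other cell types reached 20 CPM. The calls in these lists stand beside 5.97% of all genes that were higher and 6.84% that were lower. The 10 genes of caudal epiblast and neuromesodermal precursors summed to 77.2 CPM in members and 29.8 CPM in the other FGFRi-treated cells, and the 10 of lateral plate and extraembryonic mesoderm to 106 and 72.9 CPM. Of the 10 genes of caudal epiblast and neuromesodermal precursors, only Sox2 (28.3 against 14.0 CPM, 2.03-fold) reached 20 CPM and was higher. It reached this level in members only and could not have been called lower. T/Bra was at 4.68 CPM (18 UMIs in 12 cells) against 0.409 CPM, an 11.4-fold difference (5.61 to 23.3), and Wnt3a was at 0. Of 9 presomitic and somitic genes, the Wnt agonist gene Rspo3 was higher (37.4 against 23.8 CPM), while Msgn1 and Hes7 were at 0 UMIs and Tbx6 at 2. In the lateral plate and extraembryonic mesoderm list, Hand1 was at 86.5 against 61.5 CPM (1.41-fold), and none of 10 genes passed. Irx3 was the sole gene of 5 in the neurectoderm list to reach 20 CPM, at 44.2 against 21.0 CPM (2.10-fold), and 0 of 5 genes of primordial germ cells and 0 of 7 genes of hindgut and definitive endoderm reached that level. Of 7 epiblast and pluripotency genes, 0 passed. The hemato-endothelial list had 1 gene at 20 CPM, Runx1, which was lower (75.1 against 199 CPM), and 0 UMIs of Tal1, Etv2, Cdh5 and Gata1 in members. In the stress and dissociation list, Fos was higher (27.5 against 16.5 CPM, at 20 CPM in members only), and 0 of 7 were lower. Among the 6 noncoding genes at the Hox clusters, Hotairm1 was higher (30.1 against 15.8 CPM) besides Hoxaas3 and Hoxb5os, but all 3 reached 20 CPM in members only and could not have been called lower. After weighting to the members' clusters, the ratios were 2.39 for T/Bra (1.42 without cluster 1, and 27.8% of its UMIs were in 1 member), 1.05 for Sox2, 1.36 for Irx3 and 1.08 for Hotairm1, and that of Rspo3 turned to 0.853 (37.4 against 43.9 CPM). Runx1, at a weighted ratio of 0.878, also no longer passed the rule, whereas Fos (1.89) still did and Hand1 (1.61) newly did.

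Cdx2 is also a factor of the trophectoderm, and the list of extraembryonic ectoderm and trophoblast was examined for this reason. In members, Eomes, Esrrb and Bmp8b were at 0 UMIs and Elf5 at 1 UMI. The 10 genes summed to 123 CPM in members and 98.7 CPM in the other FGFRi-treated cells, and the gene with the most UMIs was Plac1 (30.9 against 28.4 CPM). Ascl2 was the only one to pass the rule of size, at 23.4 against 2.96 CPM (7.91-fold, 5.98 to 10.4), where 5.97% of all genes were higher. It reached 20 CPM in members only and could not have been called lower. Of its 90 UMIs, 95.6% were in the 6 members of cluster 5, and without the cells of cluster 5 the ratio was 1.34. In this cluster, Ascl2 was at 536 CPM in members and 136 CPM in the other FGFRi-treated cells. These 6 members had 1 Cdx2 UMI each, 6 Hox UMIs in total and a Krt8 level of 1757 CPM.

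Compared with the no FGF2 library as a whole, fewer genes stood apart from the members than in the comparison with all other FGFRi-treated cells. They were more than after weighting those cells to the members' clusters (32 higher and 46 lower). Of 6164 genes, 223 were higher in members (3.62%) and 127 were lower (2.06%), and the median log2 ratio was -0.0075. At 2-fold or more, 70 were higher (1.14%) and 43 lower (0.698%). The 5 largest ratios were those of Prrx1 (61.1 against 6.53 CPM, 9.35-fold, 7.91 to 11.0), Igfbp2, which encodes a binding protein of insulin-like growth factors (911 against 135 CPM, 6.75-fold), the procollagen processing enhancer Pcolce (35.3 against 7.57 CPM, 4.67-fold), the Wnt antagonist Dkk2 (37.7 against 8.77 CPM, 4.30-fold) and Twist1 (84.5 against 21.0 CPM, 4.03-fold). The cells without a Cdx2 UMI of the FGFRi library also had these genes, at 79.3, 1487, 33.1, 46.0 and 85.0 CPM in the same order. The 5 smallest ratios were those of Hes7, an oscillating repressor of the presomitic mesoderm, which was at 0 UMIs in members and at 29.3 CPM without FGF2 (at least 37.6-fold lower, against a floor of 3 counts over all members), Rab25, a GTPase of epithelial traffic (4.42 against 28.6 CPM, 6.47-fold lower), Hoxc4 (3.64 against 23.2 CPM, 6.38-fold), T/Bra (4.68 against 26.7 CPM, 5.70-fold) and Sall3, a zinc finger gene of the caudal region (8.32 against 37.0 CPM, 4.45-fold).

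Of the 9 FGF target genes, Spred1, Dusp4 and Dusp6 were lower in members than without FGF2 by the rule of size, beside 2.06% of all genes, and 0 were higher, with a median log2 ratio of -1.43. Dusp4 and Dusp6 reached 20 CPM in the no FGF2 library only, so that they could not have been called higher. Dusp4 was at 8.84 against 24.1 CPM and Dusp6 at 11.4 against 24.4 CPM, while Etv4 (1.04 against 15.9 CPM, 15.3-fold lower, 5.96 to 56.3) and Etv5 (2.08 against 18.9 CPM, 9.07-fold) lay below the minimum of 20 CPM. Of the 16 Hox genes at 20 CPM, 8 reached this level in the no FGF2 library only and had to be lower. Of the 7 at this level in both, 6 were lower in members, beside 2.06% of all genes, and 0 were higher. Against no FGF2 cells with a Cdx2 UMI alone, 7 of the 8 genes at this level in both groups were lower, beside 2.73% of all genes (6.86% were higher). The median log2 ratio over the 29 genes was -1.78, and some of these, such as Hoxb5 (1.56 against 6.75 CPM) and Hoxb7 (4.94 against 19.7 CPM), reached the 5 CPM of this list without FGF2 only. Against no FGF2 cells without a Cdx2 UMI, the members' median was 0.96. Only 3 of the 29 had a ratio above 1 over the no FGF2 library, Hoxa10 (27.8 against 19.4 CPM), Hoxa11 (8.84 against 4.98 CPM) and Hoxd11 (5.98 against 5.51 CPM), and none of them passed the rule of size. None of the 11 proliferation genes passed in either direction, with Top2a at 397 against 429 CPM, whereas 6 of 11 mesenchyme genes were higher in members, beside 3.62% of all genes, 5 of them at 20 CPM in both groups and Prrx1 in members only. Among them were Acta2 (444 against 141 CPM, 3.15-fold) and Vim (611 against 320 CPM). Cdkn2a (131 against 57.5 CPM) and Cdkn2b (88.4 against 42.3 CPM) were higher too, and Ccnd1 of the same list was lower (59.5 against 101.8 CPM, 1.71-fold), beside 2.06% of all genes. In the stress and dissociation list, Fos (27.5 against 9.56 CPM), Jun (156 against 97.3 CPM), Atf3 (41.3 against 26.3 CPM) and Egr1 (72.8 against 31.0 CPM) were higher in members, beside 3.62% of all genes, and 0 of 7 were lower. Of these, 3 were at 20 CPM in both groups and Fos in members only, and the 7 genes summed to 312 against 176 CPM. The higher level was not particular to members. In FGFRi-treated cells without a Cdx2 UMI, the 7 genes summed to 349 CPM. There, Jun, Atf3 and Egr1 were at 190, 47.7 and 76.8 CPM, above the members, and Fos was at 16.5 CPM, below them. The part of dissociation in the values was not tested.

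The members were also placed on the difference between the cultures. Between the no FGF2 library and FGFRi-treated cells without a Cdx2 UMI, 10.2% of 6359 genes were higher and 12.5% lower. The placement used the genes with at least 50 CPM and a 2-fold difference between FGFRi-treated cells without a Cdx2 UMI and the no FGF2 library, a choice in which the members' counts had no part. For 84 genes higher without FGF2, the median log2 ratio over FGFRi-treated cells without a Cdx2 UMI was 1.23 in the no FGF2 library and 0.94 in members. For 168 genes lower without FGF2, it was -1.34 and -0.78. Both ratios share the FGFRi-treated cells without a Cdx2 UMI as their base, and the median over all 3193 genes at this level was -0.0072 for the members. The members' levels were summed over all their clusters, and 37.1% of members lay in cluster 1 (597 no FGF2 cells against 101 FGFRi-treated cells). This placement was not repeated by cluster. Whether it reflects a mixture of cells or cells at levels between the cultures was not tested. Whole transcriptomes were compared by neighbors. Of the 15 nearest neighbors of a cell in a space of 50 principal components of both libraries, made without Cdx2, a mean of 33.8% came from the no FGF2 library for members (median 26.7%, quartiles 13.3 and 53.3%), and 12.6% for FGFRi-treated cells without a Cdx2 UMI. For no FGF2 cells, it was 94.9% with and 79.8% without a Cdx2 UMI. The mean of members with 2 or more Cdx2 UMIs was 35.8%, and of those with 1 UMI 32.3%. In 34 of the 132 members, 50% or more of the neighbors were no FGF2 cells, and in 97 of the 1569 others.

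The no FGF2 library allowed the same split by Cdx2 in cells that had no part in the comparison within the FGFRi library. There, 235 of 6188 genes were higher (3.8%) and 553 lower (8.94%) in the 1169 cells with a Cdx2 UMI than in the 527 without. Of the genes higher in the 2 splits, 101 were shared, which are 27.2% of the list of the FGFRi library and 43.0% of that without FGF2. Of the genes that were lower, 216 were shared, or 50.7% and 39.1%. Opposite directions were found for 6 of the 372 genes higher in members and 1 of the 426 lower. Hoxb9 was 18.3-fold higher with Cdx2 in the no FGF2 library, and the 29 Hox genes had a median log2 ratio of 2.92, compared with 2.07 in the FGFRi library. This split was made over all cells and was not weighted by cluster. In the largest clusters of no FGF2 cells, 0, 3 and 1, 40.7%, 71.2% and 90.6% of cells had a Cdx2 UMI. Their summed Hox levels were 200, 920 and 1773 CPM, while the smaller cluster 5 had 44.8% and 110 CPM. The part of the clusters in the shared genes was not tested. Cdkn1a (97.2 against 164 CPM), Vim (247 against 492 CPM) and Acta2 (105 against 227 CPM) were lower with Cdx2 there too. Of the 11 mesenchyme genes, 5 were lower, beside 8.94% of all genes, and 2, Twist1 and Cdh2, were higher, beside 3.8%. There, 0 of the 11 proliferation genes passed the rule, against 9 in the FGFRi library, and this difference was not tested. Krt8 (566 against 1429 CPM) was lower with Cdx2 without FGF2 and did not pass the rule in members (836 against 951 CPM), and the difference between the libraries was not tested.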

How the data were processed

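Cells of the FGFRi and no FGF2 libraries, 2 of 5, were analysed. The authors aligned reads of the 10x 3′ v3.1 libraries to mm10 with Cell Ranger (5.0.1 in the file headers, an earlier version in the methods; 10x reference of GENCODE vM23/Ensembl 98) and deposited UMI counts per gene and called barcode, without normalization and before filters on cells. The filters of the methods were applied here, 2500 detected genes and 10% mitochondrial UMIs. The methods name no step for doublets, and here none were removed and no caller was run. Counts were summed over cells, given as CPM and set against each other without a pseudocount, with exact Poisson, conditional and binomial 95% intervals. A count of 3 was the floor for genes at 0. Shares were also computed on cells thinned to 5000 or 10000 UMIs.

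Clustering used the kinds of steps named in the methods, in Scanpy 1.11.5, but on the 2 libraries alone and without Cdx and Hox genes, or Cdx2, with the numbers of components and neighbors set here: 50000 counts per cell, log transformation, variable genes (2944 without Cdx2, 2907 without Cdx and Hox genes), regression of depth and mitochondrial share, scaling, clipping at 10, 50 components, 15 neighbors and Leiden resolution 0.33 (seed 0). TMM factors came from edgeR 4.0.16. Intervals were computed with SciPy 1.17.1 in Python 3.11.15, and the steps were tested on simulated data. Positions are from GENCODE vM21 on GRCm38.

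Genes named were the 12 with the largest and smallest ratios between members and the other FGFRi-treated cells and the 5 each way against the no FGF2 library, at 20 CPM or more in either group and with no cell holding over 20% of the UMIs in the group where the gene was higher, coding Hox genes and genes of 20 lists. Members, lists and tests were chosen with earlier results of these data known. Comparisons by cluster were added after the values had been seen. The values of 1 Hox gene are not reported here singly, though it is counted in the sums and medians.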

Additional observations from a re-analysis of the deposited data

Results flagged for a closer look

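In 7 genes, cells with and without a Cdx2 UMI differed in opposite directions in the 2 libraries by the rule of size. This difference between the libraries was not tested. For 6 of them, the log2 ratio was positive with the FGFRi and negative without FGF2. It was 2.98 and -1.28 for Ascl2, 0.94 and -1.13 for Car2 (a carbonic anhydrase), 1.66 and -1.24 for Fgfbp1 (a carrier of FGF ligands), 0.72 and -1.27 for the imprinted RNA H19, 0.64 and -0.79 for Pcgf5 (a Polycomb ring finger protein) and 1.34 and -0.94 for Phlda2 (an imprinted regulator of placental growth). The share of the members' UMIs that came from the 6 members of cluster 5 was 95.6% for Ascl2, 88.4% for Fgfbp1, 84.4% for Phlda2, 61.0% for Car2, 52.3% for H19 and 30.1% for Pcgf5. Without the cells of cluster 5, the ratios of members over the other FGFRi-treated cells were 1.34, 0.530, 1.09, 1.24, 0.997 and 1.30 in this order, so that none of the 6 was then higher by 1.5-fold. The other gene, Ncam1 (a neural cell adhesion molecule), was lower in members at a log2 ratio of -0.99 and higher with Cdx2 without FGF2 at 0.74, and its ratio of 0.505 in members was 0.502 without cluster 5.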

How the results depend on the processing

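No paired analysis was possible because the result comes from no test, with 1 library per condition. The share of FGFRi-treated cells with a Cdx2 UMI was 4.15% at 10000 UMIs and 2.06% at 5000. Genes higher and lower than in the other FGFRi-treated cells, 372 and 426, numbered 591 and 783 for the 57 members with 2 or more Cdx2 UMIs, 582 and 662 at a minimum of 10 CPM, 165 and 217 at 50 CPM, and 74 and 100 at a ratio of 2. With cells weighted to the members' clusters, they numbered 32 and 46, with the clusters made without Cdx2 alone 45 and 103, and without cluster 1 154 and 167. The median log2 ratio of Hox genes was 0.25, 0.75 and 1.19 in these 3 settings, and that of Hoxb9 and Hoxb5os reached -0.073 and -0.28 in the first. Of the 372 higher genes, 17 stayed higher after the weighting, and 30 of the 426 lower. Genes higher and lower than without FGF2, 223 and 127, numbered 381 and 226 at 10 CPM, 84 and 44 at 50 CPM and 70 and 43 at a ratio of 2, and 231 were lower for members with 2 or more UMIs. The changes in number with the minimum of CPM and with the ratio follow from the construction of these limits, and the cause of the others was not tested. Under TMM factors (342 and 463 genes), at most 5% mitochondrial UMIs, no minimum of genes, equal weight of cells, weighting by depth, and without shared barcodes, cluster 5 or the deepest 5% of cells, counts stayed within 1.5-fold. In these settings, the Hox medians stayed between 1.40 and 2.64. These limits are the medians of the lower and upper limits of the 29 single genes and not an interval of the median. The members' neighbors from the no FGF2 library ranged from 31.8 to 36.6%. Of 33 genes named by size, 2 turned direction in any setting. The 3848027 UMIs of the members limit what can be said of genes under 5 CPM.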
